A study of Mus musculus with 15 samples.

Results

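The related chromatin proteins Hmga1 and Hmga2 were compared by RNA-seq in mouse embryonic stem cells (ESC) that differ in which of them was put back. The comparison has 4 samples of the 15 in the series, 2 of the Hmga2 add-back and 2 of the Hmga1 add-back, each with 1 sample in batch a and 1 in batch b. It was described over 13912 of 21662 genes, those that averaged 10 counts or more per sample. Both lines derive from 1 Hmga1 KO clone of ESC of mixed 129Sv-C57Bl/6 background, whose Hmga1 reading frame was shifted by Cas9 cutting. Each received a biotin-tagged cDNA, of Hmga1 or of Hmga2, under the CAG promoter at a defined genomic site, and each add-back is a selected line, so that the inserted gene and other differences between the lines cannot be told apart. The cells grew in serum with LIF, and the batches are libraries prepared on the same day and run on the same flow cell. WT (3 samples, batches a, b and c) and Hmga1 KO (2 samples, batches a and b) of the same experiment serve as reference levels.

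Hmga1 and Hmga2 belong to the high mobility group A family of non-histone chromatin proteins. Each carries short basic AT-hooks that insert into the minor groove of AT-rich DNA. Hmga1 is abundant in ESC, while Hmga2 is best known from the growing embryo and from tumours, where it is linked to the Lin28, let-7 and Igf2bp regulators of growth. Both coding sequences, taken from the Hmga1-001 and Hmga2-001 transcripts of GENCODE on NCBIM37 (mm9), hold 3 AT-hooks with the Arg-Gly-Arg-Pro core, in 107 residues for Hmga1 and 108 for Hmga2. The 30 bases around each core are shown because these hooks are the DNA-binding parts that the inserted cDNAs share, with the 12 bases of the core in capitals.
Hmga1 AT-hook 1: aagcgaggcCGGGGCAGGCCAcgcaagcag
Hmga2 AT-hook 1: aagcgaggaCGCGGCCGACCCaggaagcag
Hmga1 AT-hook 2: aagagacctCGGGGCCGACCAaagggaagc
Hmga2 AT-hook 2: aagagacccAGAGGAAGACCCaaaggcagc
Hmga1 AT-hook 3: aggaaaccaAGGGGCAGACCCaagaaactg
Hmga2 AT-hook 3: aaacggccaAGAGGCAGACCTaggaaatgg
Of the 30 bases, 23, 22 and 20 were identical between the genes in hooks 1, 2 and 3.

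Hmga2, the inserted gene of one line, had the largest difference of all genes tested. Levels are in CPM, counts scaled by the TMM-normalized library size, and differences are Hmga2 add-back minus Hmga1 add-back on the log2 scale. Hmga2 (chr10:119798331-119913525, mm9, minus strand) had 18.5 and 17.8 CPM in the Hmga1 add-back, against 249 and 222 CPM in the Hmga2 add-back, batches a and b in this order. It had 18.9 and 13.8 CPM in Hmga1 KO and 23.8, 12.8 and 15.8 CPM in WT. The Hmga2 add-back stood above all 7 other samples, which overlapped among themselves. The log2 difference was 3.70 ± 0.20, 13.0-fold (n = 2 per line, SE from the test statistic of the fit of all 9 samples). Hmga2 had an adjusted p of 0.000732 by the quasi-likelihood test of edgeR. Its adjusted p was 0.0196 without KO sample a, 0.0141 without KO sample b and 0.0112 without sample b of the Hmga2 add-back. The value describes reads over all 4276 exonic bases of the gene, whereas the coding part of the inserted cDNA has 327.

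Hmga1 did not separate the lines. It had 184 and 123 CPM in the Hmga1 add-back, 138 and 101 CPM in the Hmga2 add-back, 217 and 96.1 CPM in Hmga1 KO, and 464, 276 and 221 CPM in WT. The add-backs overlapped, with a log2 difference of -0.34 ± 0.17 and an adjusted p of 0.9999. Hmga1 (chr17:27693565-27700619, mm9, plus strand) was not higher in the Hmga1 add-back than in KO, with a log2 difference of 0.04 ± 0.17 between them. The counts therefore do not check the label of the Hmga1 add-back. The study reports from a Western blot, not analysed here, that this line regained Hmga1 protein at about the WT level. Reads of the inserted cDNA and of the frameshifted gene cannot be told apart here. For Hmga2, 116 of the 281 stretches of 47 bases in the coding sequence, the length of a read after trimming, occur in the genomic sequence of the gene, and 61 occur at chr1:178765920-178766168, within Sdccag8.

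Igf2bp2 was the other gene at an adjusted p under 0.05, a call lost when any KO or add-back sample was left out. It encodes an RNA-binding protein that binds the Igf2 mRNA among others. Igf2bp2 (chr16:22059082-22163372, mm9, minus strand) had 153 and 143 CPM in the Hmga1 add-back against 363 and 429 CPM in the Hmga2 add-back. The levels in Hmga1 KO were 134 and 134 CPM and in WT 120, 149 and 99.7 CPM, so that both Hmga2 add-back samples lay above all others. The log2 difference was 1.41 ± 0.13, 2.66-fold, with an adjusted p of 0.0244, and it was 1.24 in batch a and 1.59 in batch b. With no batch term in the fit its adjusted p was 0.712, for a like log2 difference of 1.42. With each of the 9 samples left out in turn, the adjusted p stayed under 0.05 in 3 fits, those without a WT sample, and not in the other 6. It was 0.201 and 0.171 without KO sample a or b, 0.0722 and 0.350 without sample a or b of the Hmga1 add-back, and 0.191 and 0.536 without sample a or b of the Hmga2 add-back, with log2 differences between 1.27 and 1.58 in these edgeR fits. Against Hmga1 KO, the log2 difference was 1.56 ± 0.13 for the Hmga2 add-back (adjusted p = 0.0117) and 0.14 ± 0.13 for the Hmga1 add-back (adjusted p = 0.9999). These comparisons share the KO samples.

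**Figure D1:**
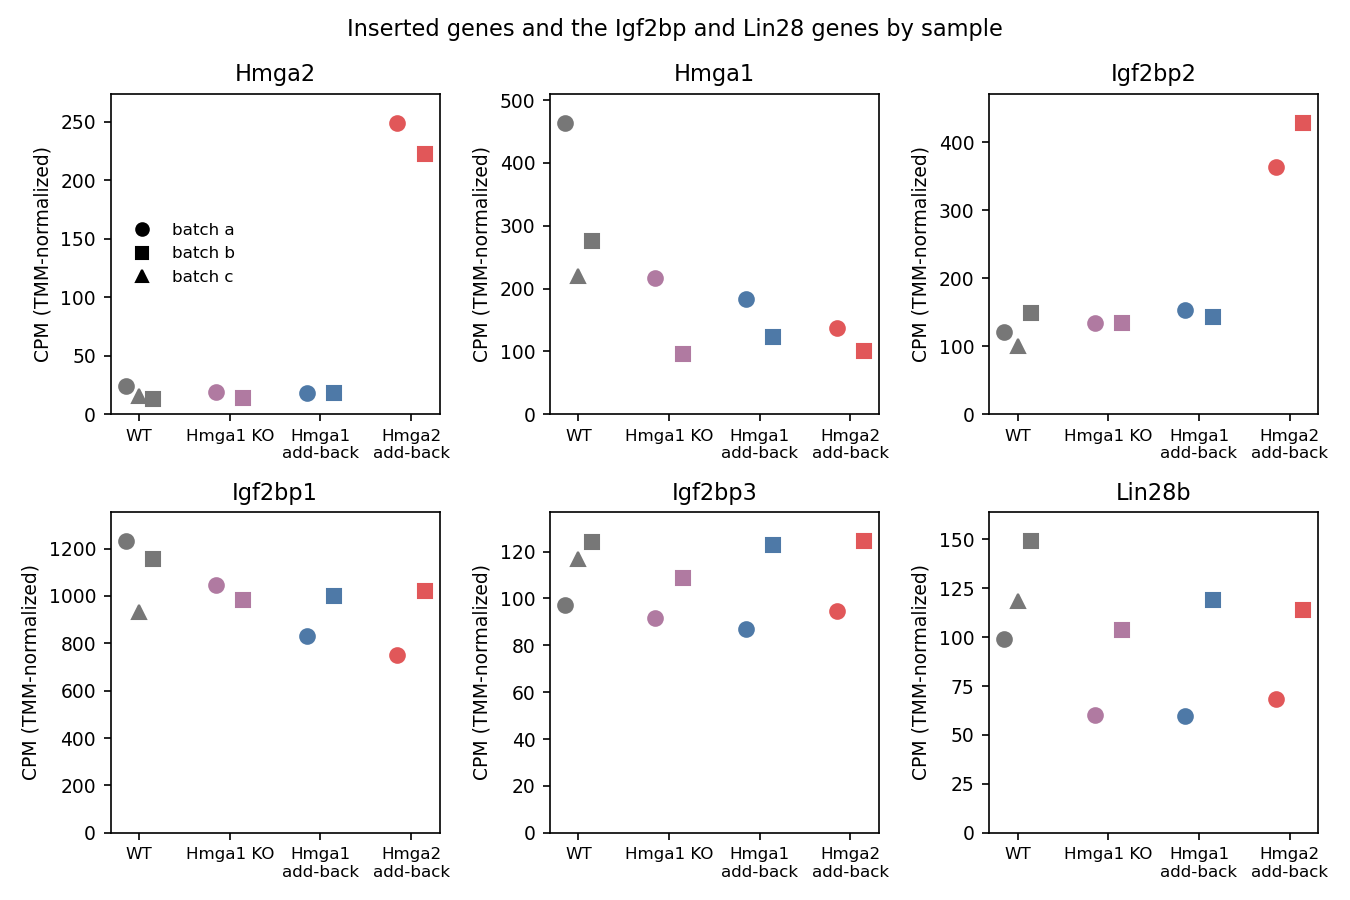
Each panel plots the level of 1 gene in CPM on a linear axis from 0, with a point per sample, marker shape for batch and color for line. Hmga2 and Igf2bp2 are high in both Hmga2 add-back samples, with 249 and 222 CPM and 363 and 429 CPM, while Hmga1, Igf2bp1, Igf2bp3 and Lin28b overlap between the add-backs.

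The call required an adjusted p below 0.01 together with a 2-fold or larger difference. Of the 13912 genes, 1 was called (0.00719%), Hmga2, and 0 were called lower. At an adjusted p under 0.05 there were 2 genes (0.0144%), Hmga2 and Igf2bp2. An unadjusted p under 0.05 was reached by 177 genes (1.27%), 96 higher (0.69%) and 81 lower (0.582%) in the Hmga2 add-back. Uniform p-values would give 695.6 genes, more than were found. The number was 757 (5.44%) in a fit of the 4 add-back samples alone, and 313, 309 and 392 without WT sample a, WT sample b or sample a of the Hmga1 add-back. The fitted difference was within 1.5-fold for 96.0% of the genes, and the median of all genes was -0.01. Across genes, the difference in batch a had a Pearson correlation of 0.048 with that in batch b (n = 13912 genes, 0.034 without Hmga2), on log2 of scaled counts with a pseudocount of 8. The 2 pairs of samples thus shared little of their gene-by-gene differences. A difference of at least 1.5-fold in the same direction in both batches was found for 81 genes higher (0.582%) and 55 lower (0.395%), and in opposite directions for 96 genes. A small change in a gene cannot be told from no change with 2 samples per line.

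**Figure D2:**
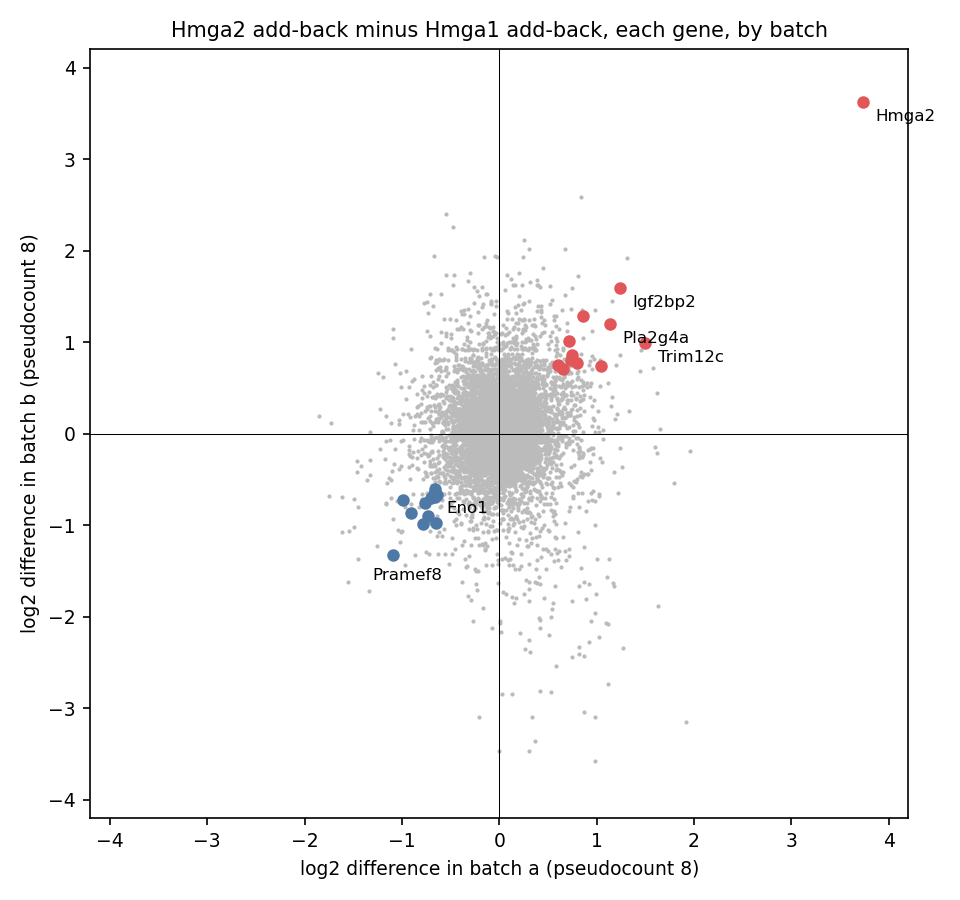
Each point is 1 of the 13912 genes, with the log2 difference, Hmga2 add-back minus Hmga1 add-back, in batch a on the x axis and in batch b on the y axis. Red and blue points are the 12 genes per direction described in the text. Hmga2 and Igf2bp2 lie farthest along the upward diagonal among the red points, while the grey cloud has no visible slope. The points are differences of log2 CPM with a pseudocount of 0.149 CPM, although the axes name 8. The correlation of 0.048 in the text was taken on scaled counts with a pseudocount of 8.

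The 12 genes per direction with the smallest p, among those at least 1.5-fold apart in the same direction in both batches, are described next. Apart from Hmga2 and Igf2bp2, each had an adjusted p of at least 0.44 in the edgeR test, so they are given as values and not as changes. In the edgeR fit of the 4 add-back samples alone, 9 of these 22 genes had an adjusted p under 0.05, against 13 of all 13912 genes. The 22 genes were chosen by their differences in these same samples, so this fit gives no separate support. Among the lower genes the adjusted p of that fit was 0.00764 for Eno1b and Lmtk2 and 0.00965 for Eno1, Cdc42 and Pramef8. Among the higher genes it was 0.0163 for Smc1b, 0.0274 for Sohlh2 and Tmem64, and 0.0420 for Sh3bgrl. On the higher side, Sh3bgrl, encoding a small thioredoxin-fold protein, had 12.2 and 17.3 CPM in the Hmga1 add-back against 20.5 and 31.4 CPM in the Hmga2 add-back. Its log2 difference was 0.81 ± 0.13, and the KO levels of 10.8 and 15.3 CPM were near those of the Hmga1 add-back. The WT levels of 21.5, 29.8 and 31.3 CPM were near those of the Hmga2 add-back. Sohlh2, a germ cell transcription factor, had 24.4 and 18.1 CPM against 40 and 36.5 CPM. All 4 of these samples lay above the WT values of 9.20, 8.69 and 8.63 CPM. Smc1b, the meiotic cohesin subunit, had 15.2 and 30.7 CPM against 31.6 and 51.2 CPM, and KO had 32.8 and 48.6 CPM. For Smc1b the Hmga1 add-back was thus the line that lay apart from KO. WT had 6.89, 17.5 and 12.7 CPM of Smc1b, below both KO and the Hmga2 add-back.

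Pla2g4a, the cytosolic phospholipase A2 that releases arachidonic acid, had 4.54 and 2.25 CPM in the Hmga1 add-back against 10.1 and 5.35 CPM in the Hmga2 add-back, with WT between 3.03 and 4.98 CPM. Xaf1, an interferon-inducible gene, had 9.05 and 8.62 CPM against 15.9 and 14.8 CPM. The other higher genes were Dhrsx, Tmem64, Rabgap1l, Trim12c and A2m, with log2 differences between 0.67 and 1.38. A2m was the one whose groups overlapped, at 3.36 and 8.10 CPM against 5.72 and 14.2 CPM, with batch b higher than batch a in both lines.

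On the lower side, Eno1, the glycolytic enzyme enolase 1, had 648 and 458 CPM in the Hmga1 add-back against 406 and 290 CPM in the Hmga2 add-back. Its log2 difference was -0.67 ± 0.10. The 2 lines did not overlap, and the Hmga2 add-back was near KO (476 and 320 CPM) and WT (415, 288 and 406 CPM). Eno1b, a near-copy of Eno1 with which it shares reads, had 1289 and 999 CPM against 794 and 612 CPM, which is not a separate measurement of another gene. Lmtk2, a membrane-anchored kinase, had 196 and 163 CPM against 116 and 96.0 CPM, a log2 difference of -0.76 ± 0.12. Here the Hmga2 add-back lay below KO (174 and 170 CPM) and WT (149, 153 and 104 CPM), except that its sample a exceeded WT c. Cdc42, the small GTPase of cell polarity, had 281 and 228 CPM against 177 and 140 CPM, and KO had 184 and 152 CPM.

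Pramef8, a member of the multigene Prame family whose copies can share reads, had the most negative difference of the 12. It had 16.4 and 23.3 CPM in the Hmga1 add-back against 7.61 and 9.22 CPM in the Hmga2 add-back, a log2 difference of -1.23 ± 0.20. WT had 9.33, 9.62 and 7.51 CPM and KO 13.3 and 12.6 CPM. The Hmga1 add-back was therefore the line above the other samples. The remaining lower genes were Rcan3, Rpl39l, Pik3cd, Lama3, Zscan5b, 2410018L13Rik and Usp17lc, with log2 differences between -0.64 and -0.99. Rpl39l was the one whose groups overlapped.

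**Figure D3:**
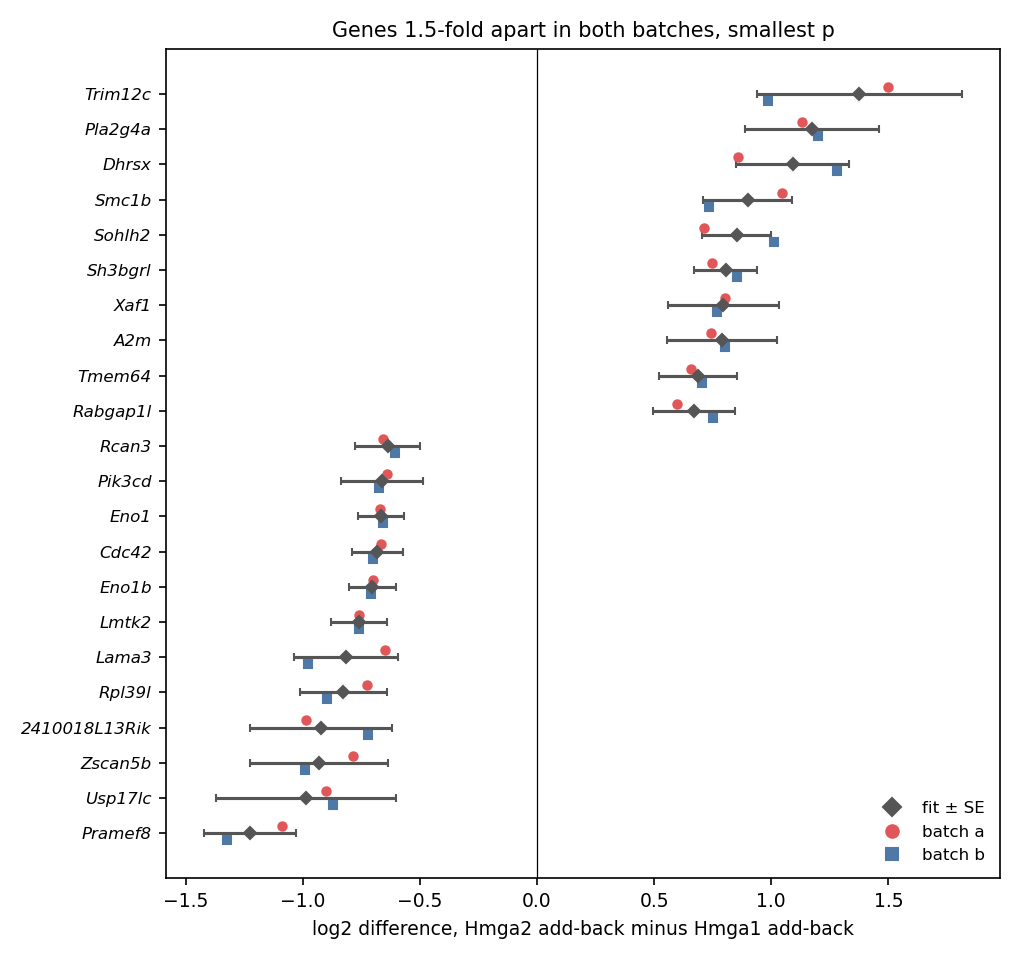
The log2 difference, Hmga2 add-back minus Hmga1 add-back, is shown on the x axis for the genes of the 12 per direction other than Hmga2 and Igf2bp2. Diamonds give the fitted value with its SE. Circles give the value in batch a and squares that in batch b, both from CPM with a pseudocount of 0.149 CPM. The fitted values run from -1.23 for Pramef8 to 1.38 for Trim12c, and both batches lie on the same side of 0 for each gene because the genes were chosen that way.

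The lower genes on chromosome 4 include Eno1, Pik3cd and Cdc42, and the first 2 are close neighbours. Genes were therefore placed on NCBIM37 (13506 of 13912), and runs of 7 neighbouring genes averaging 100 counts or more were ranked by the smaller of their median differences in the 2 batches, a step chosen after these values were seen and given without a test. Of 10204 runs, the first spans chr4:148960577-149622988 and holds Clstn1, Pik3cd, Tmem201, Slc25a33, Spsb1, H6pd and Eno1. All 7 had negative log2 differences, between -0.57 and -0.86 with a median of -0.66 (-0.67 in batch a, -0.47 in batch b). The 99th percentile of the smaller batch median, in absolute size, was 0.132 over all runs. The 6 runs with a median of at least 0.3 in both batches all overlap this place. Lower in the ranking, a separate run of the same chromosome (chr4:139582761-140535108) was also negative, with a median of -0.30 in batch a and -0.23 in batch b.

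Within that run the Hmga1 add-back was the line that lay apart from KO. Tmem201, an inner nuclear membrane protein, had 52.6 and 34.3 CPM in the Hmga1 add-back, 33.4 and 24.6 CPM in the Hmga2 add-back and 27.0 and 20.4 CPM in KO. Pik3cd, a catalytic subunit of phosphoinositide 3-kinase, had 20.7 and 18.97 CPM, 13.2 and 11.8 CPM, and 12.5 and 12.01 CPM in the same order. Slc25a33, a mitochondrial pyrimidine nucleotide carrier, had 14.0 and 19.12 CPM in the Hmga1 add-back, 9.30 and 8.73 CPM in the Hmga2 add-back and 9.46 and 11.2 CPM in KO. The median difference from KO over the 7 genes was 0.70 in the Hmga1 add-back against 0.03 in the Hmga2 add-back, comparisons that share the KO samples. Just outside the run, Ctnnbip1 had a difference of -0.07, Lzic of -0.09 and Nmnat1 of -0.03 on one side, and Rere of -0.27 and Errfi1 of -0.01 on the other. None of the 7 genes passed an adjusted p under 0.05, and the site of the inserted cDNA relative to this place was not tested.

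**Figure D4:**
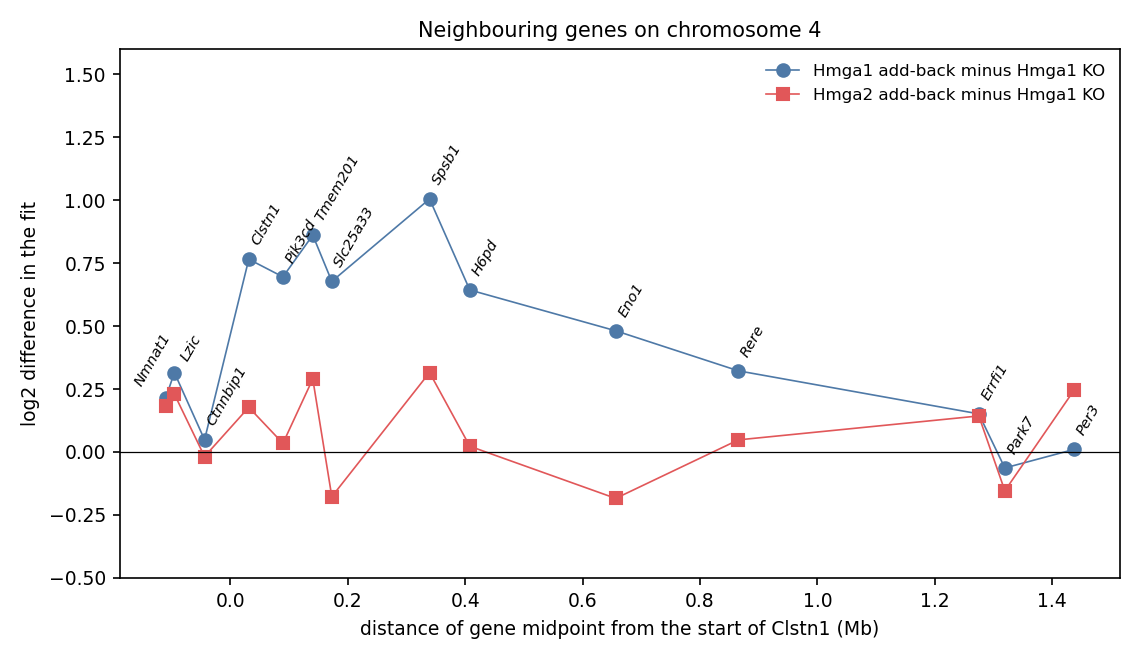
Fitted log2 differences from Hmga1 KO are plotted for 14 neighbouring genes of chromosome 4 against the distance of the gene's midpoint from the start of Clstn1 in Mb, with the Hmga1 add-back in blue circles and the Hmga2 add-back in red squares. From Clstn1 to Eno1 the blue points run from 0.48 to 1.01, above the red points (-0.18 to 0.32), and the lines meet on both sides.

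The HMG family list (chromatin proteins with HMG boxes, AT-hooks or nucleosome-binding domains) had 16 of 19 genes tested, of which 1 passed an adjusted p under 0.05, Hmga2. The other 15 had log2 differences between -0.34 (Hmga1) and 0.36 (Hmgn3). Hmgb2, an abundant HMG-box protein of dividing cells, had 328 and 478 CPM in the Hmga1 add-back against 337 and 489 CPM in the Hmga2 add-back, a batch difference present in both lines.

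In the Lin28, let-7 and Igf2bp list, 23 of 24 genes were tested and 2 passed an adjusted p under 0.05, Hmga2 and Igf2bp2. The paralogs of Igf2bp2 did not pass the test. Igf2bp1 had 830 and 998 CPM in the Hmga1 add-back against 753 and 1019 CPM in the Hmga2 add-back, and Igf2bp3 had 86.8 and 123 CPM against 94.8 and 124 CPM. Lin28a and Lin28b, which block let-7 maturation, had log2 differences of -0.13 and 0.06. Igf2r, the receptor that clears Igf2, had 149 and 137 CPM against 207 and 199 CPM (log2 difference 0.51, adjusted p = 0.9999), with KO at 212 and 203 CPM. The growth factor Igf2 itself had 2.44 and 2.92 CPM against 1.69 and 1.62 CPM. Among 20 tested genes of a list of HMGA targets known from other cells, Igf2bp2 was the one at an adjusted p under 0.05, 13 of the 20 were positive, and the list's median was 0.08. The neighbouring cell cycle inhibitors Cdkn2a and Cdkn2b had 2.81 and 4.72 against 4.95 and 6.83 CPM, and 1.84 and 1.42 against 3.64 and 2.11 CPM. Both were higher in each Hmga2 add-back sample than in the Hmga1 add-back, and neither passed the adjusted test. WT had 10.2, 9.23 and 17.6 CPM of Cdkn2a, above all 4 add-back samples, and 2.94, 2.25 and 3.94 CPM of Cdkn2b. KO had 4.01 and 3.57 CPM of Cdkn2a and 1.15 and 1.14 CPM of Cdkn2b.

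No pluripotency gene passed the test. All 31 listed genes were tested, with 0 at an unadjusted p under 0.05, a median of -0.02 and a range from -0.21 to 0.18. Pou5f1 had 711 and 952 CPM in the Hmga1 add-back against 668 and 976 CPM in the Hmga2 add-back, Sox2 1032 and 790 against 1024 and 916, and Nanog 256.2 and 198 against 269 and 240. These defining markers of ESC were thus high in all 4 samples. Of the feeder fibroblast list, 13 of 24 genes were tested, 0 reached an unadjusted p under 0.05, and 11 did not reach the minimum count. Its median was 0.10 (0.11 in both batches), and Col1a1 was at 1.26 CPM or less in the 4 samples. The formative and neural list (16 of 24 tested) had a median of -0.04 and the mesendoderm list (9 of 20 tested) one of -0.12, with 0 genes at an unadjusted p under 0.05 in either.

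Genes of primitive endoderm and trophoblast, lineages that can arise spontaneously in ESC cultures, took opposite directions in the batches. Of 19 tested, 16 had a negative fitted difference, with 0 at an unadjusted p under 0.05, and the median was 0.18 in batch a and -1.14 in batch b. Col4a1, a basement membrane collagen, had 45.0 and 193 CPM in the Hmga1 add-back, 75.5 and 35.3 CPM in the Hmga2 add-back, 14.9 and 88.7 CPM in KO and between 105 and 122 CPM in WT. Gata4, a transcription factor of primitive endoderm, had 3.91 and 7.87 CPM against 4.29 and 2.18 CPM. Of the 4 add-back samples, sample b of the Hmga1 add-back was the highest for both genes. More cells of a type and more RNA per cell cannot be told apart in such bulk samples.

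A list of genes of 2-cell-like cells, a rare state of ESC cultures that resembles the 2-cell embryo, had the lowest median of the lists other than the Y-linked genes. Of 26 listed genes 12 were tested, and all 12 had a negative fitted difference (11 under other scalings), with 5 at an unadjusted p under 0.05 (0.582% of all genes tested were lower at that threshold) and 0 at an adjusted p under 0.05. The groups did not overlap for 9 of the 12, all lower, against 6.32% of all genes tested. The median was -1.07, against -0.01 for all genes, and it was -1.30 in batch a and -0.68 in batch b. It was -0.61 without sample a of the Hmga2 add-back and -1.53 without its sample b. Zscan4c, a member of the Zscan4 family linked to telomere maintenance, had 14.9 and 11.6 CPM in the Hmga1 add-back against 5.18 and 7.04 CPM in the Hmga2 add-back. KO had 28.8 and 10.7 CPM, and WT had 0.727, 2.02 and 0.415 CPM. KO sample a thus held the highest level, and the Hmga2 add-back lay between the Hmga1 add-back and WT. Tcstv1 had 1.26 and 1.35 CPM against 0.444 and 0.493 CPM, and Gm8300 7.73 and 12.7 against 3.38 and 7.46. The 6 Zscan4 genes are near-identical copies that share reads, so they do not count as separate measurements. Eif1a and Rbm46, which ESC express outside this state, had differences of -0.06 and 0.00.

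**Figure D5:**
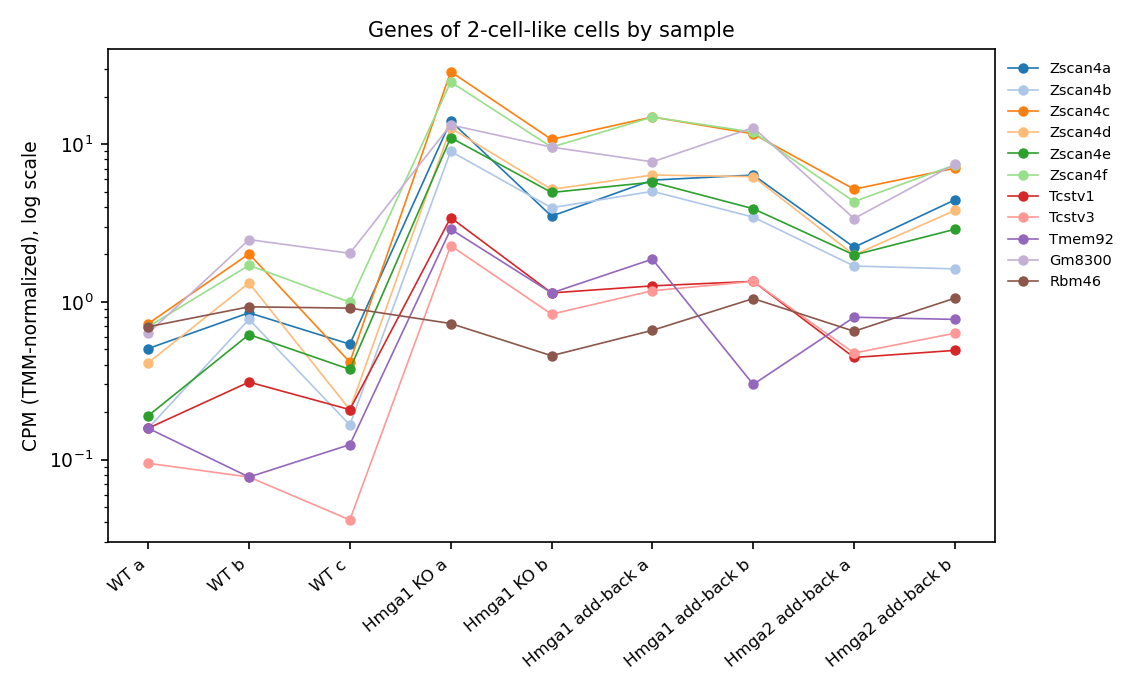
Levels of 11 genes of 2-cell-like cells (Eif1a, at a far higher level, is not drawn) are plotted in CPM on a log scale for the 9 samples, with a line per gene that joins its samples. The Zscan4 genes, Tcstv1, Tcstv3 and Gm8300 lie lower in both Hmga2 add-back samples than in both Hmga1 add-back samples, above WT, and peak in KO sample a.

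Germline and meiosis genes had 27 of 34 tested, with 3 at an unadjusted p under 0.05, all with a positive difference (Smc1b, Sohlh2 and Hydin), against 0.69% of all genes tested, and 0 at an adjusted p under 0.05. The groups did not overlap for 5 genes higher (6.12% of all genes tested) and 0 lower, and the list's median was 0.03. Imprinted genes had 35 of 40 tested, with 2 higher and 3 lower at an unadjusted p under 0.05, against 0.69% and 0.582% of all genes tested, and a median of -0.07. Rian, a maternally expressed non-coding RNA of the Dlk1-Meg3 cluster, had 13 and 7 counts in the Hmga1 add-back against 1 and 1 in the Hmga2 add-back. The ratio over the pairs was 10.04% (95% exact interval 1.14% to 41.3%, counting error only). KO had 50 and 69 counts and WT 13, 5 and 13. Rian did not pass the edgeR test, with an adjusted p of 0.9999. Impact had 235 and 229 CPM against 183 and 145 CPM, with an adjusted p of 0.9999.

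The Y-linked genes were near 0 in both add-backs. Eif2s3y, a translation initiation factor subunit, had 21 and 17 counts in the Hmga1 add-back against 5 and 4 in the Hmga2 add-back, while there were 1505, 794 and 1781 in WT and 42 and 29 in KO. The ratio of the add-backs was 23.8% (95% exact interval 10.1% to 50.04%, counting error only). Ddx3y had a ratio of 28.7% (12.7% to 59.2%) and Uty one of 27.4% (9.08% to 69.6%), so that all 3 tested genes of the list had fewer counts in the Hmga2 add-back, each from at most 38 counts over a pair, and 0 of the 3 passed the adjusted test. Uba1y, a Y-linked gene outside the list that was noted after its values were seen, had 9 and 8 counts against 0 and 2. The X-linked relatives of these genes had a median log2 difference of 0.00 over 7 genes.

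Across the 29 lists, 26 had a median within 0.2 of 0, from -0.12 for mesendoderm to 0.15 for p53 targets, and 3 held a gene at an adjusted p under 0.05, which was Hmga2 or Igf2bp2 in each. The medians of batches a and b had 1 sign in 22 of the 29 lists, and they were 0.38 and -0.14 for mesendoderm, 0.13 and -0.22 for FGF and early response genes, and 0.07 and -0.14 for cytosolic ribosomal proteins. For p53 targets, 19 of 21 tested genes had a positive difference, with 0 at an unadjusted p under 0.05, and Bax and Rrm2b were the 2 whose groups did not overlap, both higher, against 6.12% of all genes tested. Cytosolic ribosomal proteins had a median of -0.05 over 81 genes, and the respiratory chain one of -0.05 over 76. Cell cycle genes had a median of -0.03 over 32, heterochromatin genes -0.04 over 23, and linker and core histones -0.01 over 21. Among genes next to Hmga2, 0 of 11 had a positive difference and 1 a negative one at an unadjusted p under 0.05 (0.582% of all genes tested), with a median of -0.07, and Irak3, the latter gene, was at 10.2 and 7.27 against 4.62 and 5.07 CPM. Around Hmga1, 12 of 13 tested genes, Hmga1 included, were negative, with a median of -0.11 and 0 at an unadjusted p under 0.05, but the median was -0.19 in batch a and -0.0039 in batch b.

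Because both inserted proteins bind AT-rich DNA, genes were also ordered by the AT content of the whole gene and cut into 10 bins of equal size. The median difference was -0.03 in the bin of lowest AT content (26.3% to 45.8%) and 0.04 in that of the highest (60.1% to 67.8%). The step from the lowest to the highest bin was 0.131 in batch a and -0.01 in batch b, so it was not shared by the batches.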

How the data were processed

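Total RNA, depleted of ribosomal RNA, was sequenced as 50-base single reads from strand-specific libraries. The authors trimmed 3 bases, aligned reads to mm9 with QuasR and Bowtie, placed a multi-mapping read at 1 random alignment, and deposited raw counts per UCSC known gene on the same strand. Labels' notes also name bcl2fastq 2.17. The total was 32195653 for batch a and 13977621 for batch b of the Hmga1 add-back, and 31022941 and 14585417 for the Hmga2 add-back, so batch a is the more precise.

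Genes averaging 10 counts or more over the 9 samples of the experiment were TMM-normalized and tested with edgeR 4.0.16 (quasi-likelihood, R 4.3.3), with batch as a term and Benjamini-Hochberg adjustment. The letters mark batches in the study's account, and the difference between a and b had a correlation of 0.811 across genes between the add-backs. Samples are separate cultures of 1 line each, so p-values cover the spread between cultures, not between lines. The script's recovery of changed genes was checked on simulated data, which does not show that p-values are calibrated on the real counts. Members, the 29 lists and the tests were chosen with earlier results of these data known. Named were Hmga1, Hmga2, Igf2bp2, all called genes, the 12 per direction with the smallest p among genes 1.5-fold apart in both batches (mean count of at least 30 over the 4 samples), and list members at an adjusted p under 0.05 or else the 2 with the smallest p. Others given as examples were chosen after their values were seen. Alternatives used DESeq2 1.42.0 or limma 3.58.1, other scalings, filters and sample sets, and left out each sample in turn. Sequences and positions came from NCBIM37 with GENCODE. The second experiment of the series was not used here. Part of the sequence search is not reported here.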

Additional observations from a re-analysis of the deposited data

How the results depend on the processing

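The number of genes called was 1 (Hmga2) under 8 of the 12 alternatives that left out no single sample, including the fit with no replicate block, that is without the pairing by batch. It was 2 without a filter on low counts and at an adjusted p under 0.05 (Hmga2 and Igf2bp2), and 3 with DESeq2's Wald test and in the fit of the 4 add-back samples alone (Hmga2 and Igf2bp2 higher, Pramef8 lower). With each sample left out in turn it was 0 to 1. It was 0 without KO sample a, KO sample b or sample b of the Hmga2 add-back, where Hmga2 had an adjusted p of 0.0196, 0.0141 and 0.0112 in edgeR. Genes at an unadjusted p under 0.05 numbered 177 in the test as reported, 137 to 392 with a sample left out (155, 155 and 164 in these 3 fits), 55 with no replicate block and 757 in the 4 add-back samples. A line left with 1 sample was assumed to vary like the others. The log2 difference of Hmga2 was 3.50 to 3.91 in these fits and that of Igf2bp2 1.27 to 1.58. The adjusted p of Igf2bp2 was 0.00274 without the filter (1.41), 7.9e-17 in DESeq2 (1.42) and 0.000301 in the 4 add-back samples (1.41), and 0.712 with no replicate block, the highest of its 19 alternatives. It was 0.0101 to 0.536 with a sample left out, and 0.0722 or more in the 6 of 9 fits that left out a KO or add-back sample. DESeq2 placed 9 genes at an adjusted p under 0.05, and these included Eno1, Eno1b, Lmtk2, Cdc42, Sh3bgrl and Sohlh2.

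Of 71 named genes, 66 kept their direction in every alternative. With a sample left out, the difference ran from -1.31 to 2.32 for Fosb, -0.582 to 0.0405 for Dnmt3b, -0.648 to 0.0436 for Inhbb, -0.237 to 0.0124 for Eif2s3x and -0.0350 to 0.185 for Kdm6a. The correlation between batches was 0.108 at a mean count of at least 100 and 0.0279 with a pseudocount of 1. The step across AT bins was 0.0664 (batches together), and -0.00999 in batch b alone. Of 87 list medians under other scalings or without the block, 4 changed sign, none of them beyond 0.0121 in size, and the median of all genes stayed between -0.01 and 0.01. The median of the 2-cell-like list was -0.61 without sample a of the Hmga2 add-back and -1.53 without sample b. With runs of 11 genes, added after seeing the data, the same place on chromosome 4 ranked first (median -0.59), and with runs of 5 genes a run on chromosome 7 with 3 Zscan4 genes did (-1.13). Depth and 2 samples per line limit all statements on genes of few counts.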

Other observations

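Among X-linked genes, the Hmga2 add-back lay above the Hmga1 add-back without overlap for 62 of 496 tested genes (12.5%) and below it for 13 (2.62%), against 6.08% and 6.30% of all placed genes. The median log2 difference of the chromosome was 0.04, with 0.09 in batch a and 0.01 in batch b. After the chromosome 4 runs at the top of the ranking, the next run of 7 genes lies on this chromosome (chrX:104592438-108810688, mm9). It holds Itm2a, 2610002M06Rik, Brwd3, Hmgn5, Sh3bgrl, Rps6ka6 and Hdx, with a median of 0.27 in batch a and 0.57 in batch b. Each sample was also set against the WT sample of its own batch. The median of this run, batches a and b in order, was then 0.23 and -0.06 in the Hmga2 add-back and -0.36 and -0.69 in the Hmga1 add-back. In KO it was -0.44 and -0.52. These values were picked from all chromosomes after they were seen, and no test was made.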
